A study of Saccharomyces cerevisiae with 35 samples.

Results

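The subtelomeric ORFs described here are the nuclear ORFs of chromosomes I to XIV that lie within 20 kb of a chromosome end: they end at most 20000 bases from the left end, or start within 20000 bases of the largest coordinate annotated on the chromosome. The rule uses position alone and gives 269 of 6575 nuclear ORFs, with 5–14 ORFs at each of the 28 ends. They were compared with the other 5197 nuclear ORFs of the same chromosomes. Chromosomes XV and XVI were left out because their copy number differs between strains.

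The libraries hold RNA of whole colonies, grown for 4 d at 30° on rich medium with glucose, each from several pooled colonies of a *Saccharomyces cerevisiae* strain derived from haploid F45. All strains, F45 included, are *MATa* with *HO* replaced by *hphMX6*, carry an *SPS2:EGFP:natMX4* reporter, and have a serine auxotrophy that is not mapped. The first batch has 24 libraries, 4 for each of 6 groups: a disome with a second copy of chromosome XV, a disome with a second copy of chromosome XVI, a chromosome XVI disome in which 1 of the 2 *DIG1* genes is replaced by *kanMX4* (the hemizygous strain, *dig1*Δ*/DIG1*), F45 with *DIG1* on a low-copy plasmid, F45 with the empty plasmid, and euploid F45. The study uses the empty plasmid strain as the control of the *DIG1* plasmid strain. Its strain list names a different plasmid for each and does not state that they share a backbone. Differences between the plasmid strains are therefore not shown to come from *DIG1* alone. *DIG1*, on chromosome XVI, encodes a repressor of mating and filamentation genes. The second batch has 11 libraries: *flo11*Δ (4) and *cis3*Δ (4), each combining a pair of separately made strains, and F45 (3). *FLO11* encodes a cell surface flocculin and *CIS3* a cell wall protein.

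Total counts per library were 6503076–37823857 among the 24 libraries of the first batch and 11565108–25104790 among the 11 of the second. Levels are given as normalized CPM, counts scaled to a common library size within each batch. One count was worth 0.031–0.18 CPM. The labels were checked first. *DIG1* was at 125–149 CPM in the chromosome XVI disome, 54.7–65.3 CPM in the hemizygous strain, and 63.5–72.0 CPM in F45, and it was at 291–317 CPM with the *DIG1* plasmid and 67.9–74.1 CPM with the empty plasmid. *CIS3* was at 0.17–0.36 CPM in *cis3*Δ against 737–831 CPM in F45, and *FLO11* at 3.55–6.36 CPM in *flo11*Δ against 18286–20368 CPM in F45. The a-cell receptor gene *STE2* was at 105–267 CPM in all 35 libraries, *HO* at most at 0.82 CPM, and the α-factor gene *MF(ALPHA)1* at 0.32–3.85 CPM. The other a-cell genes looked up were at 12.9–81.7 CPM (*MFA1*), 37.1–441 CPM (*MFA2*), 3.90–58.55 CPM (*BAR1*), and 22.45–71.2 CPM (*STE6*). Of the other α-cell genes, *MF(ALPHA)2* was at 0.16–1.035 CPM. The α-cell receptor gene *STE3* went the other way, at 8.71–36.9 CPM, a range that overlaps that of *BAR1*, and the cause was not tested.

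Subtelomeres are the gene-poor stretches between the telomeric repeats and the unique body of a yeast chromosome. They exchange sequence between chromosomes, so their genes often belong to families with near-identical copies, and many serve needs that come and go: uptake of sugars and phosphate, making vitamins, sticking to surfaces. The Sir proteins spread from telomeres and from the silent mating type cassettes *HML* and *HMR* and repress transcription there, and the deacetylase Hda1 acts over broader domains further in.

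Repetition was measured on the R64 reference sequence of RefSeq as the share of an ORF's 51-base windows (the read length of the first batch) that occur elsewhere in the genome. Over 5% of the windows were repeated in 175 subtelomeric ORFs (65.1%), against 170 of the other ORFs (3.27%), and over 50% in 136 subtelomeric ORFs. Copies on chromosome XV were found for 83 and on chromosome XVI for 71. Read pairs were counted without a filter on mapping quality, so that reads of identical copies were shared among them and a value of such an ORF belongs to its family. The 4 *THI5* genes, whose products make the pyrimidine part of thiamine, show how copies differ. Each is 1023 bases long, with 7–23 bases different in a pair. In the 120 bases from base 409 of the coding strand, shown here because they hold the most differences, capitals mark the positions at which the 4 genes are not all alike:

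THI5 (chrVI:13337-13456, plus strand): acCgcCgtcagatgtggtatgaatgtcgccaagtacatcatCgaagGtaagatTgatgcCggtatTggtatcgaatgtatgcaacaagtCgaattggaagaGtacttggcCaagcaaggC

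THI11 (chrX:729069-729188, minus strand): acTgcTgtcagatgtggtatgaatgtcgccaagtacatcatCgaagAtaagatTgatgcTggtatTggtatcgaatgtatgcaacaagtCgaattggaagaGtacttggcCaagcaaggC

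THI12 (chrXIV:15240-15359, plus strand): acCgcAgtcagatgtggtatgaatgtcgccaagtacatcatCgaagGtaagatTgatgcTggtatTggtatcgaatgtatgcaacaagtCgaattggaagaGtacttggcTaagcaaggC

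THI13 (chrIV:16612-16731, plus strand): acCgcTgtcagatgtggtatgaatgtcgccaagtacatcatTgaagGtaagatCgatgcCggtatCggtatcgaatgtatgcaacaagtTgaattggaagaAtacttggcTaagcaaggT

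*THI13* has a base of its own at several of these positions and the lowest share of repeated windows of the 4, 59.4%, against 84.6% for *THI5*. The hexose transporter genes *HXT15* and *HXT16* are closer still, with 2 different bases in 1704, of which 1 falls in the stretch from base 709 (capital):

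HXT15 (chrIV:12533-12652, minus strand): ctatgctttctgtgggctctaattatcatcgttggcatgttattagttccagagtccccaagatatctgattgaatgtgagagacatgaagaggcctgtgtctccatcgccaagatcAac

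HXT16 (chrX:733148-733267, plus strand): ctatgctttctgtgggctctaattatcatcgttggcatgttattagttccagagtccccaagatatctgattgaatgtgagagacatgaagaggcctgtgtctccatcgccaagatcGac

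With 94.1% and 93.8% of their windows repeated, the counts of this pair cannot be assigned to either gene. *HMLALPHA2*, the α2 gene of the silent cassette on chromosome III, shares its last part with the a2 ORF at *HMR*. All 360 bases of *HMRA2* lie within the 633 bases of *HMLALPHA2*, from base 274 on, which covers 53.2% of the windows of *HMLALPHA2*. The junction is shown with the shared bases in capitals:

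HMLALPHA2 (chrIII:12686-12805, minus strand): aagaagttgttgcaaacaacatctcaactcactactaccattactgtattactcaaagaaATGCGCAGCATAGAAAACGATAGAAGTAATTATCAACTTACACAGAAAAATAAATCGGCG

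The phosphate genes among the subtelomeric ORFs, which gave the largest decreases below, were searched for CACGTG, the core of the motif bound by the phosphate regulator Pho4, on both strands of the 1000 bases before the start codon. All 4 of *PHO89*, *GIT1*, *PHO11*, and *PHO12* hold it (capitals):

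PHO89 (chrII:798828-798857, minus strand): atgacaatgcagCACGTGggagacaaatag

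GIT1 (chrIII:299106-299135, minus strand): cttttcgcggcgCACGTGcatgacggtaaa

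PHO11 (chrI:225165-225194, plus strand): tcttggcgttcaCACGTGggtttaaaaagg

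PHO12 (chrVIII:551804-551833, plus strand): tcttggcgttcaCACGTGggtttaaaaagg

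The motif begins 323, 518, 283, and 283 bases before these start codons. It is a short motif, present before 22 of 201 subtelomeric ORFs matched to RefSeq (10.95%) and before 646 of 5894 nuclear ORFs (10.96%), so its presence alone does not set the 4 genes apart. The zinc-responsive element bound by the regulator Zap1, searched in its palindromic form on both strands of the same stretch, was found before 13 of the 5894 ORFs (0.221%) and before 1 subtelomeric ORF, *ERO1*, and not before the zinc-linked *VEL1* or *ADH4*.

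Subtelomeric ORFs were expressed at low levels in every group. Their median in F45 of the first batch was 5.17 ± 0.37 CPM per kb (SD over 4 libraries), against 40.0 ± 0.48 CPM per kb for the other ORFs, and 39.3% of them were under 1 CPM, against 9.94% of the others. Per library, the median of subtelomeric ORFs was 0.129 ± 0.010 times that of the other ORFs. Among ORFs with at most 5% of windows repeated, the same ratio was 0.682, so the ratio is much nearer 1 without the repeated ORFs. Subtelomeric ORFs took 1.76% of the ORF counts of chromosomes I to XIV in F45.

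Levels were higher further from the end. In F45 of the first batch the median was 0.73 CPM per kb for the 65 ORFs within 5 kb, 3.47 CPM per kb for the 81 ORFs at 5–10 kb, 7.21 CPM per kb for the 64 ORFs at 10–15 kb, and 31.4 CPM per kb for the 59 ORFs at 15–20 kb. Beyond the limit, the 65 ORFs at 20–25 kb had 29.6 CPM per kb, so that the step lies inside the 20 kb and not at its edge. The same order held among ORFs with few repeats, at 0.040 CPM per kb (7 ORFs), 14.9 CPM per kb (16 ORFs), 28.3 CPM per kb (26 ORFs), and 40.3 CPM per kb (45 ORFs), although the first value rests on 7 ORFs. Among ORFs with a RefSeq locus it held too, at 2.49 (35 ORFs), 4.79 (61 ORFs), 8.54 (53 ORFs), and 36.3 CPM per kb (52 ORFs). Reads were aligned to the reference, so loci that F45 lacks or carries in diverged form also count as low here. Just inside the limit lie YMR315W-A, *LYS1*, *FDC1*, *PCA1*, and *MMP1* (7.68–297 CPM per kb), and just outside it *TOG1*, *MAL13*, YHR214W, *PRE4*, and *ERG13* (0.90–417 CPM per kb).

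**Figure D1:**
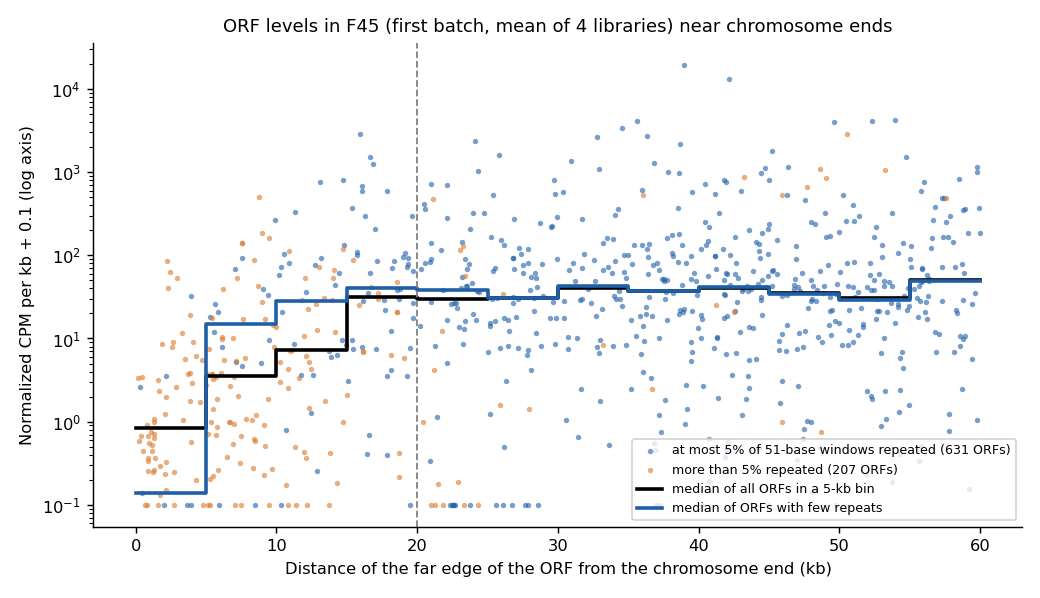
Normalized CPM per kb (plus 0.1, log axis) in F45 of the first batch, mean of 4 libraries, for each ORF of chromosomes I to XIV within 60 kb of an end, against the distance of its far edge from that end in kb. Orange points have more than 5% of their windows repeated, steps are medians of 5-kb bins, and the dashed line marks 20 kb: the median of all ORFs climbs to 31.4 CPM per kb at 15–20 kb.

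The highest levels in F45 belonged to *HXK1*, which encodes a hexokinase, with 2862 ± 32 CPM per kb, *MSC1* with 1505 ± 117 CPM per kb, and *CHA1*, the serine and threonine deaminase gene, with 1270 ± 95 CPM per kb (SD, n = 4). They were followed by *COX14* (cytochrome oxidase assembly), YNR071C, *HYR1* (thiol peroxidase), *DLD3*, YFR052C-A, *MAN2* (mannitol dehydrogenase), and *GTT1* (glutathione transferase) at 368–813 CPM per kb. Of these 10, 9 lie 13101–17845 bases from their end and have no repeated window, and *MAN2*, at 8749 bases, has 58.0% of its windows repeated. At the other extreme, 14 subtelomeric ORFs (5.20%) had no count in any of the 35 libraries, against 37 of the other ORFs (0.712%). Among them are 3 neighbors with no repeats on the right arm of chromosome XIV, *AIF1*, *COS10*, and YNR075C-A. A silent gene and a locus that F45 lacks or carries in diverged form cannot be told apart from these counts. Others of the 14, such as YEL076C and YAR060C, have every window repeated, so their reads may have been counted at a copy.

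The silent cassette *HML* gave a mixed reading. *HMLALPHA1*, the α1 activator gene, had at most 5 counts in a library, and none in any *flo11*Δ library. *HMLALPHA2*, by contrast, was at 39.0–48.1 CPM in F45 of the first batch. Its counts ran with those of its copies: *MATALPHA2* in the reference averaged 44.4 CPM and *HMRA2* 41.5 CPM in the same libraries, beside 45.8 CPM for *HMLALPHA2*. All 3 have every window repeated, and *MATa* cells transcribe an a2 sequence that is identical to the shared end of α2, so the counts cannot be assigned to *HML*. *HMRA1*, which has no repeated window in the reference, had 0 counts in all 35 libraries. The reference carries the α genes at *MAT*, so a1 reads from *MAT* in these *MATa* strains would have only *HMRA1* to align to. The absence of counts can therefore not be read as silence of *HMR*, and its cause was not tested. *HMLALPHA2* was at 83.9, 81.4, 73.6, and 76.6 CPM in the hemizygous strain, against 45.1, 59.97, 53.8, and 53.2 CPM in the chromosome XVI disome, with no overlap. With the *DIG1* plasmid it was at 53.3, 41.1, 43.7, and 40.4 CPM, against 59.4, 66.5, 68.2, and 64.6 CPM with the empty plasmid. The log2 fold change was 0.57 ± 0.09 for hemizygous over disome (adjusted p = 2.8e-05) and -0.52 ± 0.09 for *DIG1* plasmid over empty plasmid (adjusted p = 3.6e-05). The empty plasmid strain was itself above F45, by 0.50 ± 0.09 (adjusted p = 3.51e-05), and the *DIG1* plasmid libraries overlapped those of F45.

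Of the 269 subtelomeric ORFs, 176 had enough counts to be tested in each batch, and 81 of these have few repeats. Those left out are the low ones, and 48 of the 93 not tested in the first batch have no locus in the RefSeq table. Groups were compared with edgeR's quasi-likelihood test, and an ORF is called at an adjusted p under 0.01, over all features tested. Fold changes are log2, with the SE of the fit. In colonies of mixed cells, fewer cells that express a gene and less RNA per cell cannot be told apart.

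In the chromosome XV disome 91 subtelomeric ORFs changed from F45, 33 higher and 58 lower, a share of 51.7%, against 57.1% of other ORFs. The split was uneven: 33.0% were lower, against 28.6% of other ORFs, and 18.7% higher, against 28.5%. In the chromosome XVI disome 98 changed, 52 higher (29.5%, against 26.7%) and 46 lower (26.1%, against 24.4%), in all 55.7%, against 51.1%. In the hemizygous strain 82 changed, 30 higher (17.0%, against 28.8%) and 52 lower (29.5%, against 28.9%), in all 46.6%, against 57.7%. The share called was below that of other ORFs in the chromosome XV disome and the hemizygous strain, and above it in the chromosome XVI disome. Between the disomes, 92 differed (52.3%, against 42.8%), with 25 higher in the chromosome XV disome (14.2%, against 22.2%) and 67 lower (38.1%, against 20.7%).

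Between the hemizygous strain and the chromosome XVI disome, which differ in 1 copy of *DIG1*, 31 subtelomeric ORFs changed (17.6%, against 25.8% of other ORFs), 8 higher (4.55%, against 12.2%) and 23 lower (13.1%, against 13.6%). With the *DIG1* plasmid 56 differed from the empty plasmid (31.8%, against 32.3%), 19 higher (10.8%, against 16.1%) and 37 lower (21.0%, against 16.2%). The empty plasmid strain differed from F45 in 73 (41.5%, against 48.2%), 23 higher (13.1%, against 24.7%) and 50 lower (28.4%, against 23.5%). Among ORFs with few repeats it differed in 53.1%, against 48.1% of other ORFs with few repeats. In *flo11*Δ 64 changed, and here the increases led, 46 against 18 decreases. These 46 are 26.1% of those tested, against 14.9% of other ORFs that were higher, and the 18 are 10.2%, against 15.7%, in a comparison in which 30.6% of other ORFs were called. The excess was smaller among ORFs with few repeats, of which 16 were higher (19.75%) and 10 lower (12.35%). The other ORFs with few repeats had 14.61% higher and 15.89% lower. The remaining increases are of repeated ORFs, whose copies share reads. In *cis3*Δ 3 subtelomeric ORFs were called, all lower, *FLO10*, *THI5*, and *THI12*, where 0.399% of other ORFs were called. None was higher, against 0.21% of other ORFs. Leaving out 1 library gave 1–4 calls. At an unadjusted p under 0.05 there were 44 in *cis3*Δ, DESeq2 called 7, and a fit with the *cis3*Δ and F45 libraries alone called 0.

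The median log2 fold change of the tested subtelomeric ORFs lay between -0.22 and 0.17 in all 9 comparisons, against -0.02 to 0.03 for other ORFs. The lowest was that of the chromosome XV disome over the chromosome XVI disome and the highest that of *flo11*Δ over F45. Among the ORFs with few repeats these were -0.15 and 0.03. In all, 156 subtelomeric ORFs were called at least once and 26 were tested and never called. The comparisons with F45 of the first batch share its 4 libraries.

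**Figure D2:**
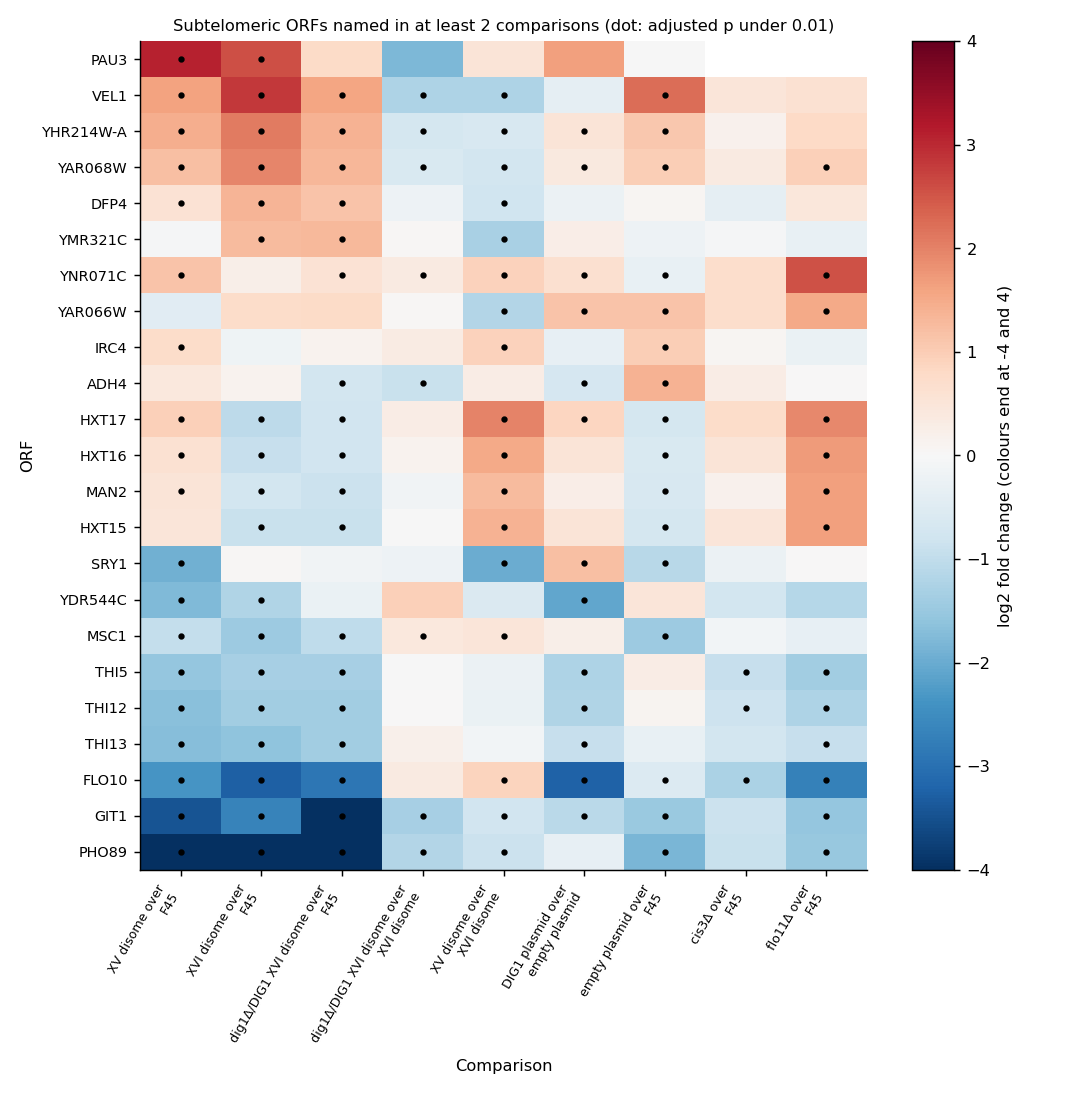
Log2 fold change (color, ending at -4 and 4) of the 23 subtelomeric ORFs that the naming rule picked in at least 2 of the 9 comparisons, 1 column each, with the group named first over the second. Dots mark an adjusted p under 0.01 and white cells were not tested. *PHO89*, *GIT1*, and *FLO10* are at the bottom, with decreases in all 3 disomic strains, and the *HXT* genes are higher in the chromosome XV disome than in the chromosome XVI disome.

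The largest decreases were in phosphate uptake. *PHO89* (chrII:796798-798522) encodes a sodium and phosphate cotransporter of the plasma membrane that is made when phosphate runs short. It was at 11.3, 8.72, 5.04, and 3.37 CPM in the chromosome XV disome, at 14.7, 9.33, 11.9, and 8.66 CPM in the chromosome XVI disome, and at 5.40, 5.07, 5.23, and 3.73 CPM in the hemizygous strain, against 211, 192, 171, and 189 CPM in F45. Each disomic library was below every F45 library by an order of magnitude. It fell by 4.92 ± 0.175 in the chromosome XV disome (30.3-fold, adjusted p = 6.24e-19), by 4.07 ± 0.15 in the chromosome XVI disome (16.8-fold, adjusted p = 2.43e-18), and by 5.26 ± 0.18 in the hemizygous strain (38.2-fold, adjusted p = 5.52e-19). The empty plasmid strain stood between, at 52.5, 46.9, 57.2, and 57.1 CPM, 3.56-fold below F45. In *flo11*Δ *PHO89* was at 31.7, 26.4, 21.8, and 17.7 CPM, against 54.7, 72.6, and 81.0 CPM in F45 of its batch, a decrease of 1.52 ± 0.27 (adjusted p = 0.000585).

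*GIT1* (chrIII:297049-298605), which encodes the permease for glycerophosphoinositol, another source of phosphate, followed the same order. It was at 21.0, 16.1, 13.4, and 12.7 CPM in the chromosome XV disome, at 25.1, 25.9, 28.5, and 23.3 CPM in the chromosome XVI disome, and at 9.78, 11.2, 10.03, and 10.5 CPM in the hemizygous strain, against 170, 176, 161, and 160 CPM in F45. The groups do not overlap, and the hemizygous strain was the lowest. It was 2.52-fold below the chromosome XVI disome (log2 fold change -1.33 ± 0.17, adjusted p = 1.6e-06), and *PHO89* was 2.27-fold below it. *GIT1* was at 26.4, 29.7, 29.4, and 26.9 CPM with the *DIG1* plasmid, against 42.3, 50.6, 71.8, and 72.6 CPM with the empty plasmid, a decrease of 1.08 ± 0.13. The acid phosphatase genes *PHO11* and *PHO12*, which differ in 4 bases, moved less: their sum was 26.6 ± 3.1 CPM in the chromosome XV disome, 35.5 ± 2.9 CPM in the chromosome XVI disome, and 32.0 ± 2.3 CPM in the hemizygous strain, against 45.7 ± 2.6 CPM in F45 (SD, n = 4 each). The phosphate list has 6 members, all tested. In each of the 3 disomic strains and in *flo11*Δ 4 of them fell, *PHO89*, *GIT1*, *PHO11*, and *PHO12*. Of other ORFs, 28.6% fell in the chromosome XV disome, 24.4% in that of chromosome XVI, 28.9% in the hemizygous strain, and 15.7% in *flo11*Δ. The remaining pair, *VTH1* and *VTH2*, encodes copies of a vacuolar sorting receptor, not phosphate proteins, and did not fall in these comparisons. The fall was not particular to these strains. In the euploid strain with the empty plasmid 5 of the 6 were called lower than in F45 and none higher, against 23.5% and 24.7% of other ORFs. *PHO11* and *PHO12* share reads, as do *VTH1* and *VTH2*, so these counts are not of independent genes.

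**Figure D3:**
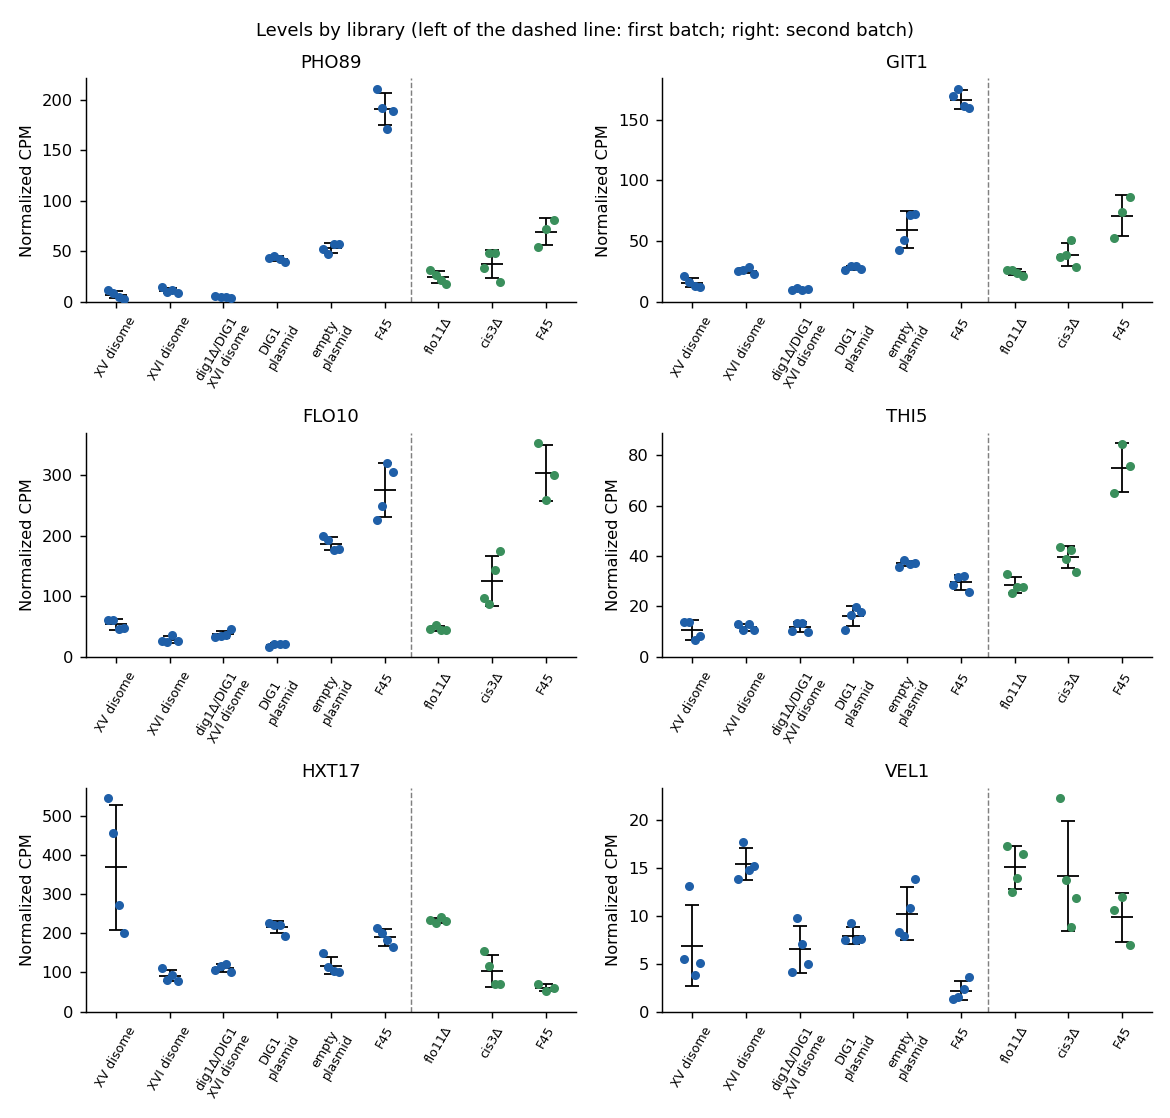
Normalized CPM of 6 subtelomeric ORFs in each of the 35 libraries (points), with the mean and SD of each group (black), disomic, plasmid, and deletion strains left of the F45 of their batch. *PHO89* is at 3.37–14.7 CPM in the 12 disomic libraries against 171–211 CPM in F45 of the first batch.

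Vitamin genes fell next. The list holds the 4 *THI5* genes, *SNZ2*, *SNZ3*, *SNO2*, and *SNO3* (vitamin B6 synthesis, next to *THI* genes at the ends of chromosomes VI and XIV), and *SNO4*, whose product is related to a stress chaperone instead. The *THI5* genes share reads, as do *SNZ2* with *SNZ3* and *SNO2* with *SNO3*, so the counts of this list are not of independent genes. All 9 fell in the chromosome XV disome (other ORFs 28.6%), 8 fell in the disome of chromosome XVI (other ORFs 24.4%), and 7 in the hemizygous strain (other ORFs 28.9%), with none higher, and the median log2 fold changes were -1.35, -1.32, and -0.88, against -0.00, 0.03, and 0.00 for other ORFs. *THI5* was at 13.9, 13.8, 6.53, and 8.34 CPM in the chromosome XV disome, at 12.9, 10.6, 13.1, and 10.6 CPM in the chromosome XVI disome, and at 10.2, 13.4, 13.5, and 9.78 CPM in the hemizygous strain, against 28.6, 31.8, 32.1, and 25.8 CPM in F45. The 3 strains overlap each other and none overlaps F45. Over the 4 copies, the sum was 47.2 ± 15 CPM in the chromosome XV disome, 50.1 ± 5.7 CPM in the chromosome XVI disome, and 54.7 ± 7.7 CPM in the hemizygous strain, against 134 ± 4.4 CPM in F45.

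In the plasmid strains 4 of the 9 vitamin genes were called, all lower with the *DIG1* plasmid, against 16.2% of other ORFs. *THI5* was at 10.7, 16.8, 19.6, and 18.0 CPM with the *DIG1* plasmid, against 35.8, 38.4, 36.7, and 37.4 CPM with the empty plasmid, a decrease of 1.22 ± 0.15 (adjusted p = 1.91e-07), and the 4 *THI5* genes were the 4 called. Their smallest decrease was that of *THI11*, -0.57 ± 0.14. *SNO4* was at -0.45 ± 0.15 (adjusted p = 0.0163), and *SNZ2*, *SNZ3*, *SNO2*, and *SNO3* at -0.23 to -0.05, which did not pass the test. Differences between these genes were not tested. In *flo11*Δ *THI5* was at 32.9, 25.4, 27.6, and 27.8 CPM, and in *cis3*Δ at 43.6, 38.7, 42.5, and 33.8 CPM, against 65.0, 84.6, and 75.6 CPM in F45. It was lower in every library of both deletions, by 1.401 ± 0.11 in *flo11*Δ (adjusted p = 2.62e-06) and by 0.93 ± 0.11 in *cis3*Δ (adjusted p = 0.00103). *THI11* differed less, by -0.35 ± 0.13 and -0.18 ± 0.13, and was not called in either. In the *cis3*Δ comparison the call of *THI5* was lost when only the 2 groups were fitted (adjusted p = 0.0163), and its estimate was then -0.92.

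*FLO10* (chrXI:646356-649865), a flocculin gene with no repeated window, is the subtelomeric relative of *FLO11*. It was at 61.4, 60.9, 45.6, and 46.9 CPM in the chromosome XV disome, at 26.9, 23.7, 36.8, and 25.98 CPM in the chromosome XVI disome, and at 32.9, 33.7, 36.8, and 46.0 CPM in the hemizygous strain, against 226, 249, 320, and 306 CPM in F45. All 12 disomic libraries were below F45, and the decreases were 2.38 ± 0.13, 3.26 ± 0.13, and 2.90 ± 0.13. The lowest level in the first batch was that with the *DIG1* plasmid, at 16.6, 21.2, 20.9, and 21.7 CPM, against 200, 194, 177, and 179 CPM with the empty plasmid, a 9.40-fold decrease (adjusted p = 1.45e-16). Loss of 1 *DIG1* copy in the disome did not raise it past the threshold (0.36 ± 0.14, adjusted p = 0.0491). In *flo11*Δ it was at 45.8, 52.0, 44.9, and 44.6 CPM and in *cis3*Δ at 97.3, 87.2, 143, and 175 CPM, against 353, 260, and 300 CPM in F45, decreases of 2.70 ± 0.20 (adjusted p = 1.31e-06) and of 1.27 ± 0.19 (adjusted p = 0.0054). The *cis3*Δ call was lost without either of 2 F45 libraries or of 2 *cis3*Δ libraries (adjusted p of 0.0132–0.0234). These *cis3*Δ libraries, at 97.3 and 87.2 CPM, are both from the same deletion strain, and those at 143 and 175 CPM from the other. The fit has no term for strain, so a difference between the *cis3*Δ strains counts as spread between libraries. The yapsin genes *YPS5* and *YPS6* encode cell wall proteases. In some comparisons *YPS6* went the other way, higher by 0.70 ± 0.06 in the chromosome XVI disome and by 0.71 ± 0.14 in *flo11*Δ. Of the 3 genes *FLO10*, *YPS5*, and *YPS6*, 2 fell in the chromosome XV disome and none rose (other ORFs 28.6% and 28.5%). With the empty plasmid all 3 were lower than in F45, at -0.59 to -0.45 (other ORFs 23.5%).

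The sugar genes divided the disomes, in both directions. Of 15 tested, 6 were higher in the chromosome XV disome than in that of chromosome XVI and 6 lower, against 22.2% and 20.7% of other ORFs. The list holds several pairs that share reads, so these are not counts of independent genes. On the lower side, *IMA3* and *IMA4* summed to 51.15 ± 4.8 CPM against 93.96 ± 4.35 CPM, and *MAL12* and *MAL32* to 226.5 ± 16 CPM against 398 ± 22 CPM. *HXT17*, a hexose transporter gene next to *MAN2* and YNR071C at the right end of chromosome XIV, was at 545, 455, 271, and 201 CPM in the chromosome XV disome, against 110, 81.7, 94.0, and 79.3 CPM in the chromosome XVI disome. The log2 fold change was 2.00 ± 0.19 (adjusted p = 1.78e-09), although the 4 libraries of the chromosome XV disome lie far apart. F45 stood between them at 214, 200, 183, and 164 CPM, so that *HXT17* was 1.92-fold higher than F45 in the chromosome XV disome and 2.08-fold lower in the chromosome XVI disome. *HXT15* and *HXT16*, as a pair, summed to 143 ± 58 CPM in the chromosome XV disome and 50.8 ± 5.3 CPM in the chromosome XVI disome, and *MAN2* was higher by 1.26 ± 0.13. YNR071C, annotated as a relative of aldose epimerases, was at 2018, 1861, 1500, and 1509 CPM in the chromosome XV disome, against 984, 893, 944, and 848 CPM in the chromosome XVI disome and 762, 880, 758, and 735 CPM in F45.

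YNR071C and *HXT17* also gave the largest increases in *flo11*Δ. YNR071C was at 1052, 966, 1061, and 1145 CPM in *flo11*Δ, against 261, 122, and 162 CPM in F45, and *HXT17* at 234, 226, 242, and 230 CPM, against 71.4, 53.0, and 59.8 CPM. No library overlapped, and the increases were 2.54 ± 0.34 (adjusted p = 9.7e-05) and 1.93 ± 0.23 (adjusted p = 3.65e-05). *HXT16*, *HXT15*, and *MAN2* rose by 1.63–1.70. Of the 15 sugar genes, all tested, 11 rose in *flo11*Δ and none fell, with a median of 0.83, where 14.9% of other ORFs rose and 15.7% fell. The 11 include *HXT15* with *HXT16*, *MAL12* with *MAL32*, and *SOR1* with *SOR2*, pairs that share reads, so the rises are not independent of each other. In *cis3*Δ none of the 15 was called, and *HXT17* was at 155, 116, 71.3, and 71.1 CPM. The libraries at 155 and 116 CPM are from the same *cis3*Δ strain, and the others from the other strain. With the *DIG1* plasmid *HXT17* was at 225, 222, 221, and 192 CPM, against 150, 115, 104, and 102 CPM with the empty plasmid (0.87 ± 0.19, adjusted p = 0.000504). The empty plasmid strain was below F45 (-0.69 ± 0.19, adjusted p = 0.00293), and the *DIG1* plasmid libraries overlapped those of F45.

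The maltase genes *MAL12* (chromosome VII) and *MAL32* (chromosome II) share 83.3% and 83.7% of their windows and are read as a pair. *MAL32* was at 215, 191, 201, and 191 CPM in the chromosome XVI disome and at 195, 198, 186, and 181 CPM in the hemizygous strain, against 91.7, 101, 88.1, and 90.1 CPM in F45. The pair summed to 398 ± 22 CPM and 379 ± 12 CPM in these strains, against 186 ± 7.1 CPM in F45, and neither gene has a window on chromosome XVI. In the chromosome XV disome *MAL32* was at 128, 112, 112, and 110 CPM, a smaller increase of 0.31 ± 0.06. *HXK1*, the most abundant subtelomeric ORF, was 1.39-fold higher than F45 in the chromosome XV disome (0.48 ± 0.07) and 1.80-fold higher in *flo11*Δ (0.85 ± 0.12).

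Among the genes linked to metals, *VEL1*, of unknown function but known to respond to zinc limitation, was at 13.8, 17.7, 14.8, and 15.2 CPM in the chromosome XVI disome and at 8.32, 7.85, 10.9, and 13.9 CPM with the empty plasmid, against 1.31, 1.53, 2.42, and 3.58 CPM in F45. Those are increases of 2.82 ± 0.31 (adjusted p = 1.24e-08) and of 2.23 ± 0.31 (adjusted p = 1.07e-06). *VEL1* also rose in the chromosome XV disome, to 5.49, 13.2, 3.78, and 5.09 CPM, and in the hemizygous strain, to 4.16, 9.75, 7.08, and 4.98 CPM. In *flo11*Δ it was at 17.3, 12.5, 14, and 16.5 CPM, against 10.7, 11.9, and 6.93 CPM in F45 of that batch, a difference that did not pass the test (0.62 ± 0.26, adjusted p = 0.073). Levels cannot be set across batches. *ADH4*, an alcohol dehydrogenase gene that also responds to zinc, was at 808, 782, 938, and 1057 CPM with the empty plasmid, against 315, 305, 357, and 400 CPM in F45 (1.38 ± 0.19, adjusted p = 1.21e-06). In the hemizygous strain it was at 149, 235, 228, and 209 CPM, against 419, 283, 430, and 383 CPM in the chromosome XVI disome (-0.88 ± 0.19, adjusted p = 0.000966). Of the metal list of 6, 2 rose and 1 fell with the empty plasmid (other ORFs 24.7% and 23.5%), and 2 rose and 1 fell in the chromosome XVI disome (other ORFs 26.7% and 24.4%), so the counts of this list are near those of other ORFs.

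A pair of genes of amino acid and purine metabolism set the disomes apart. *SRY1* (chrXI:17359-18339) encodes a dehydratase that breaks down hydroxyaspartate. It was at 21.8, 21.2, 22.9, and 22.8 CPM in the chromosome XV disome, against 79.3, 98.1, 81.1, and 91.2 CPM in the chromosome XVI disome and 83.4, 93.1, 80.2, and 78.9 CPM in F45. The decrease from the chromosome XVI disome was 1.97 ± 0.11 (adjusted p = 2.97e-14). With the *DIG1* plasmid *SRY1* was at 103, 83.1, 79.7, and 96.7 CPM, against 44.5, 45.9, 34.9, and 31.1 CPM with the empty plasmid. The *DIG1* plasmid libraries overlapped those of F45, and the empty plasmid libraries lay below both. *LYS1*, the last step of lysine synthesis, was 2.104-fold higher with the *DIG1* plasmid than with the empty plasmid (1.07 ± 0.11), which was itself 1.77-fold below F45, and 2.03-fold lower in the chromosome XV disome than in the chromosome XVI disome (-1.02 ± 0.12).

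*IMD2* encodes inosine monophosphate dehydrogenase, a guanine synthesis enzyme made when GTP is low. It was at 18.4, 18.3, 21.1, and 23.96 CPM in the chromosome XV disome, against 60.2, 56.6, 60.2, and 60.2 CPM in the chromosome XVI disome, a decrease of 1.51 ± 0.11 (adjusted p = 1.21e-11). F45 was at 28.4, 26.02, 26.04, and 25.9 CPM, so the chromosome XVI disome was 2.23-fold above F45, and the hemizygous strain 1.82-fold, at 43.0–50.7 CPM. The related fragments YAR073W and YAR075W at the right end of chromosome I moved with it, at -1.67 ± 0.16 and -1.65 ± 0.24 between the disomes, and share 32.9% and 29.9% of windows with other loci. YMR321C differed by -1.30 ± 0.10, but 68.3% of its windows, all the repeated ones, occur on chromosome XVI itself, so its reads cannot be told apart from those of a locus with a second copy in the chromosome XVI disome.

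The *YRF1* genes encode helicases of the Y′ elements that lie next to many telomeres. The 6 *YRF1* ORFs among the subtelomeric ORFs have 98.0–100% of their windows repeated, 74.6–100% on chromosome XV and 82.5–100% on chromosome XVI. Summed, they were at 155 ± 12 CPM in the chromosome XVI disome and 120 ± 7.5 CPM in the hemizygous strain, against 116 ± 5.0 CPM in F45, and at 113 ± 7.7 CPM in the chromosome XV disome (SD, n = 4 each). All 6 were called higher in the chromosome XVI disome (log2 0.34–0.49), against 26.7% of other ORFs. None was called in the hemizygous strain, which carries the same second chromosome XVI, nor in the chromosome XV disome, against 57.7% and 57.1% of other ORFs. *YRF1-1* was at 26.2, 25.3, 27.6, and 28.8 CPM in the chromosome XVI disome, at 16.9, 18.9, 17.3, and 18.8 CPM in the hemizygous strain, and at 17.8, 20.5, 19.3, and 21.1 CPM in F45. The hemizygous strain was lower than the chromosome XVI disome in each of its libraries, by 0.59 for *YRF1-1*. Of the 6, 3 passed the test of this difference, against 13.6% of other ORFs called lower. In *flo11*Δ the sum was 147 ± 2.4 CPM against 120 ± 10 CPM in F45, and 2 of the 6 were called higher, against 14.9% of other ORFs.

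The pattern was wider than the helicases. Of the tested subtelomeric ORFs, 22 have over 50% of their windows on chromosome XVI. In the chromosome XVI disome 15 of the 22 were higher and 2 lower, with a median of 0.42, against 26.7% and 24.4% of other ORFs. In the hemizygous strain 1 of the 22 was higher and 1 lower, with a median of 0.03, against 28.8% and 28.9% of other ORFs. From the chromosome XVI disome to the hemizygous strain 10 fell and none rose, with a median of -0.34, against 13.6% and 12.2% of other ORFs. The 22 with over 50% of their windows on chromosome XV, a set that shares ORFs with the first, had a median of -0.00 in the chromosome XV disome. There 1 was higher and 3 lower, against 28.5% and 28.6% of other ORFs. In the chromosome XVI disome their median was 0.39, with 15 higher and 2 lower, against the same 26.7% and 24.4%. The 81 ORFs with few repeats had a median of -0.01 in the chromosome XVI disome. These ORFs overlap in sequence and are not independent of each other.

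**Figure D4:**
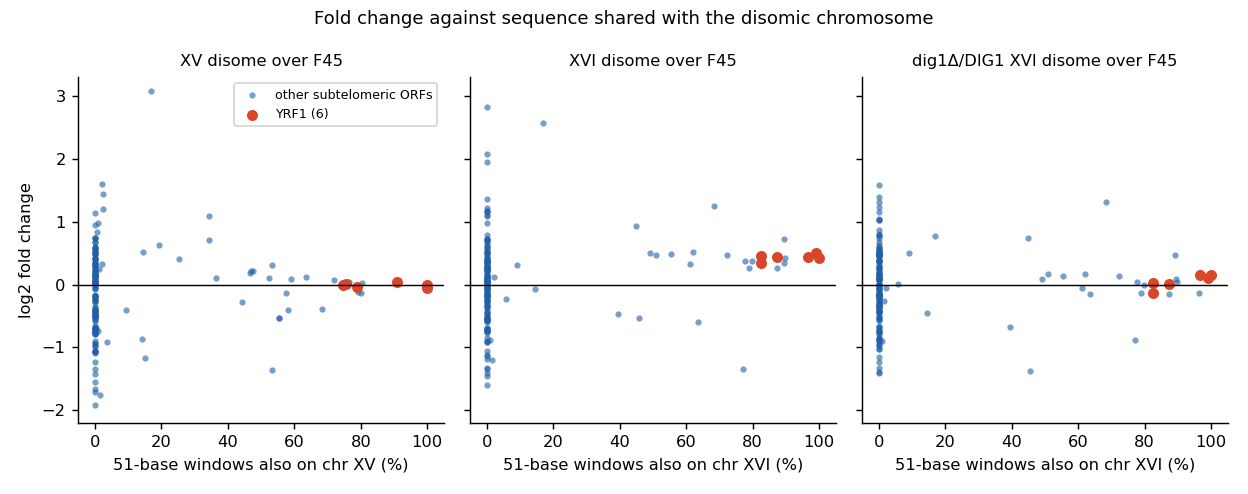
Log2 fold change over F45 of each tested subtelomeric ORF against the share of its 51-base windows that also occur on the duplicated chromosome (XV in the left panel, XVI in the others), with the 6 *YRF1* ORFs in red. The *YRF1* points are at 0.34–0.49 in the chromosome XVI disome and near 0 in the other panels. In each panel 3 ORFs with larger changes lie outside the axis.

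Members of the *COS* family, whose products help sort membrane proteins into the vacuole, moved by small amounts. In *flo11*Δ 9 of 10 tested rose, by 0.30–0.62, against 14.9% of other ORFs, and *COS12* was at 0.00 ± 0.10. In the chromosome XV disome 7 of 10 rose, by 0.19–0.34, against 28.5% of other ORFs, and *COS9* fell by 0.28 ± 0.05. *COS2*, whose windows are all repeated, was at 111, 110, 104, and 117 CPM in the chromosome XV disome, against 100, 99.8, 90.7, and 96.4 CPM in F45, and at 111, 111, 113, and 117 CPM in *flo11*Δ, against 75.8, 71.7, and 74.4 CPM in F45 of the second batch. With the empty plasmid 7 of 10 fell and none rose, against 23.5% and 24.7% of other ORFs. Most *COS* genes have repeated windows and share reads, so they are not independent of each other.

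The seripauperin genes, cell wall protein genes known for their induction without oxygen, were near silent. Of 16 *PAU* genes, 7 had enough counts to be tested in the first batch and 5 in the *flo11*Δ and *cis3*Δ batch. *PAU3* was the one with the largest rise, and it rested on few reads: 14, 5, 10, and 24 counts in the chromosome XV disome and 15, 13, 17, and 3 counts in the chromosome XVI disome, against 2, 0, 1, and 3 counts in F45. The fitted changes were 3.08 ± 0.55 and 2.58 ± 0.58, and in CPM the groups did not overlap. Also low were YHR214W-A and YAR068W, a pair of related ORFs with 88.3% of windows repeated. YHR214W-A averaged 7.32 CPM in the chromosome XV disome, 11.5 CPM in the chromosome XVI disome, and 7.15 CPM in the hemizygous strain, against 2.80 CPM in F45, and it was called in all 3. In the euploid strain with the empty plasmid it averaged 5.75 CPM, 2.11-fold above F45 (adjusted p = 1.86e-07).

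*MSC1*, the second most abundant subtelomeric ORF, was below F45 in these strains. It was at 1366, 1253, 1099, and 1088 CPM in the chromosome XV disome, at 877, 860, 857, and 803 CPM in the chromosome XVI disome, and at 864, 810, 854, and 863 CPM with the empty plasmid, against 2476, 2457, 2093, and 2257 CPM in F45. F45 was above all of them. The decreases were 1.45 ± 0.08 in the chromosome XVI disome and 1.45 ± 0.08 with the empty plasmid. *CHA1* fell as well, by 0.58 ± 0.08 in the chromosome XV disome, 0.69 ± 0.08 in the chromosome XVI disome, and 0.40 ± 0.08 with the empty plasmid.

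Genes of the silencing machinery were looked up beside these values. Of 22 listed genes for Sir, Ku, Rif, histone deacetylase, and related proteins, all were tested, and 13 were higher in the hemizygous strain (against 28.8% of other ORFs), 7 in the chromosome XVI disome (against 26.7%), and 6 in the chromosome XV disome (against 28.5%). The counts of higher genes in the chromosome XV and XVI disomes are near those shares. None was lower in the chromosome XVI disome or the hemizygous strain, against 24.4% and 28.9% of other ORFs. In the chromosome XV disome *SIR1* alone was lower (-0.49), against 28.6% of other ORFs. With the empty plasmid 7 were higher and 2 lower than in F45, against 24.7% and 23.5% of other ORFs. In *flo11*Δ *SIR2* (0.73) and *TUP1* (0.31) were higher, and *DOT1* (-0.75), *HST3* (-0.48), *YKU70* (-0.45), and *SAS2* (-0.39) were lower, against 14.9% and 15.7% of other ORFs. Their part in the levels of subtelomeric ORFs was not tested.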

How the data were processed

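RNA of 35 libraries was sequenced as stranded, poly(A)-selected read pairs, 24 libraries in the first batch (51-base reads) and 11 in the second (75-base reads). The authors aligned the reads with Bowtie2 (2.1.0) to the R64 reference extended with nonreference F45 sequence and counted read pairs per annotated feature and strand with featureCounts (1.4.0). The deposited values are raw counts per feature, with no filter on mapping quality, so read pairs of repeated sequence are counted at one of their copies. Where the strain of a column stands only as a strain number, it was matched to its group through the strain list of the study. Columns were matched to groups and not to single samples, and libraries are numbered by the tag of their column.

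Levels are CPM, scaled within each batch by TMM factors computed over nuclear ORFs (for the first batch, those on chromosomes I to XIV). Groups were compared within a batch with edgeR (4.0.16, R 4.3.3), quasi-likelihood F test, after filterByExpr, with all groups of the batch in the fit, an offset for the second copy of a disomic chromosome, a prior count of 0.125, and Benjamini-Hochberg adjustment over 8097 (first batch) or 8059 (second batch) features tested. The SE is the size of the log2 fold change divided by the square root of F. Nothing states that the libraries of a group came from separate cultures, so p-values measure the spread between these libraries, which may be technical in part.

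Repeats were searched as exact 51-base windows on both strands of the R64 reference, and nonreference F45 sequence was not used here. Of the 269 ORFs, 201 matched the RefSeq table of that reference. Named ORFs are the 5 called, non-overlapping ones with the largest change in each direction per comparison, the 10 highest in F45, the members of gene lists chosen by symbol, and those nearest to the 20 kb limit. The ORFs and lists were chosen with earlier results of these data known. Alternatives were RLE factors, TMM over all features, a likelihood ratio test, DESeq2 (1.42.0), other filters on low counts, a fit of 2 groups alone, a replicate block, limits of 10 kb and 30 kb, ORFs with few repeats, and leaving out each library.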

Additional observations from a re-analysis of the deposited data

Results flagged for a closer look

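A list of 25 subtelomeric ORFs, chosen after their values were seen, was screened for libraries that stand apart from the other 3 of their group. Of 208 groups screened, including the median level of all subtelomeric ORFs, 13 were flagged, where chance flags about 1 in 20. Values are in CPM. With the *DIG1* plasmid, 1 library was low for *FLO10* (16.6, the others 20.9–21.7), for *THI13* (13.3, the others 16.5–17.1), and for *HXT17* (192, the others 221–225), and 1 was high for YNR071C (1078, the others 966–983) and for *VEL1* (9.24, the others 7.44–7.63). In *flo11*Δ 1 library was high for *FLO10* (52, the others 44.6–45.8), for *THI12* (26.5, the others 19.1–19.5), and for *ADH4* (1493, the others 1148–1200). In F45 of the first batch 1 library was low for *HXT16* (37.6, the others 45.1–46.1) and for *HMLALPHA2* (39, the others 47.9–48.1), and 1 was high for *IMD2* (28.4, the others 25.9–26). *IMD2* was also low in 1 chromosome XVI disome library (56.6, the others 60.2), and *MAL32* high in 1 chromosome XV disome library (128, the others 110–112).

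The effect of extra *DIG1* was compared between euploid F45 (*DIG1* plasmid over empty plasmid) and the chromosome XVI disome (disome over hemizygous strain), as an interaction in the edgeR fit. This contrast was also chosen after the data were seen. The doses differ, with *DIG1* at 291–317 CPM against 67.9–74.1 CPM on plasmids and at 125–149 CPM against 54.7–65.3 CPM in the disomes. The euploid reference was itself changed. The empty plasmid strain differed from F45 in 41.5% of subtelomeric ORFs (other ORFs 48.2%), *VEL1*, *ADH4*, *PHO89*, *GIT1*, *HXT17*, *SRY1*, and *MSC1* among them. For *HXT17* and *SRY1* the *DIG1* plasmid libraries overlapped those of F45. How much of each difference below comes from this reference was not tested. The effects differed for 44 of 176 subtelomeric ORFs (25%), against 670 of 4734 other ORFs (14.2%). The 44 include several members each of the *YRF1*, *COS*, and *THI5* families, whose copies share reads, so they are not independent of each other. The share among ORFs with few repeats was not computed. In the log2 difference, euploid minus disome, *FLO10* stood at -2.87 (adjusted p = 5.03e-11), with -3.23 in the euploid and -0.36 in the disome. *GIT1* stood at -2.41 (adjusted p = 4.94e-09), with opposite signs, -1.08 in the euploid and 1.33 in the disome. More negative in the euploid were also *VEL1* at -1.59, *ADH4* at -1.56, *PHO89* at -1.5, *THI5* at -1.23, *THI12* at -1.2, *IMD2* at -0.73, *THI13* at -0.72, *YRF1-1* at -0.66, and *COS2* at -0.28. More positive in the euploid were *HXT17* at 1.16, *SRY1* at 1.02, YNR071C at 1, and *MSC1* at 0.67. Their adjusted p ranged up to 0.00996, for *COS2*.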

How the results depend on the processing

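Numbers follow one order throughout: chromosome XV disome over F45, chromosome XVI disome over F45, hemizygous strain over F45, hemizygous strain over chromosome XVI disome, chromosome XV over XVI disome, *DIG1* plasmid over empty plasmid, empty plasmid over F45, *cis3*Δ over F45, and *flo11*Δ over F45. With a limit of 10 kb in place of 20 kb the counts of subtelomeric ORFs called were 28, 44, 23, 13, 43, 22, 26, 0, and 31, with a limit of 30 kb 159, 149, 152, 62, 144, 95, 118, 5, and 101, and among ORFs with few repeats 46, 38, 42, 16, 43, 29, 43, 1, and 26; these sets differ in size by construction. In *cis3*Δ the likelihood ratio test called 6, DESeq2 7, and a fit of the 2 groups alone 0. Leaving out 1 library gave 83–90, 89–94, 70–78, 27–36, 78–89, 46–54, 63–70, 1–4, and 48–63 calls, with the lowest *cis3*Δ count without 1 F45 library, and no called ORF changed sign. Columns of different groups share tags, whose meaning is not stated. Not every same-tag pair correlated above 0.1 (24 of 60 in the first batch and 4 of 10 in the second, medians 0.07 and 0.04, against -0.02 for other tags in both), so the tags were not taken as pairs, although 13 of 24 and 5 of 11 libraries correlated best with their own tag, a hint of pairing from the data alone. With the tag as a replicate block, 88, 96, 83, 38, 91, 59, 76, 2, and 62 were called.

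The median log2 fold change moved by more than its spread in these cases. With 10 kb it was 0.3243 in the chromosome XVI disome, 0.07732 in the hemizygous strain, -0.1814 for hemizygous strain over chromosome XVI disome, -0.3479 between the disomes, -0.07001 for the *DIG1* plasmid, and 0.3104 in *flo11*Δ. With 30 kb it was -0.06487 in the chromosome XV disome, 0.02883 in the chromosome XVI disome, -0.08733 in the hemizygous strain, -0.1459 between the disomes, -0.06429 for the *DIG1* plasmid, and 0.09541 in *flo11*Δ. With few repeats it was -0.1775, -0.009758, and -0.06083 in the 3 disomic strains over F45, -0.05246 for hemizygous strain over chromosome XVI disome, -0.1459 between the disomes, -0.09546 for the empty plasmid, and 0.03421 in *flo11*Δ. With no filter on low counts it was 0.1093 in the chromosome XVI disome, -0.1437 between the disomes, -0.1518 for the *DIG1* plasmid, 0.02256 for the empty plasmid, and 0.1001 in *flo11*Δ. With a mean of at least 1 CPM it was 0.05548 in the chromosome XVI disome and, for the hemizygous strain, -0.06085, and with the 2 groups alone 0.05573 in the chromosome XVI disome. Leaving out 1 library gave medians, in the first order, of -0.07706 to 0.001744, 0.03593 to 0.09717, -0.06962 to 0.01054, -0.1251 to -0.08922, -0.2399 to -0.1901, -0.1341 to -0.09883, -0.06883 to -0.01935, -0.04546 to 0.003492, and 0.1345 to 0.1793. The causes were not tested.

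The level of subtelomeric against other ORFs, 0.129 in F45 of the first batch and 0.153 in the second, was 0.6818 and 0.7234 among ORFs with few repeats, 0.1827 and 0.2443 among ORFs with a RefSeq locus, 0.3274 and 0.3967 past the filter on low counts, 0.04477 and 0.04201 with 10 kb, and 0.2198 and 0.2948 with 30 kb. Leaving out 1 library gave 0.1262–0.1341 and 0.1523–0.1536. Over 83 fold changes of named ORFs and 1305 alternatives, none reversed and 20 lost the call, 14 of them for *FLO10*, *THI5*, and *THI12* in *cis3*Δ, and the other 6 for YDR544C, YAL066W, *PAU6*, and YJR157W. The 93 ORFs not tested in each batch, most *PAU* genes among them, had too few counts for a test.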
